A study of Mus musculus with 7 samples.

Results

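The 10 genes described here belong to the unfolded protein response (UPR), and were taken from the count files by their symbols: Hspa5, Hsp90b1, Xbp1, Atf4, Atf6, Ddit3, Ern1, Eif2ak3, Dnajb9 and Trib3. They are 10 of the 27179 genes counted, and all 10 were among the 15098 genes tested for a difference between genotypes. RNA-sequencing was carried out on femoral cortical bone, with the bone ends cut off and the marrow flushed out, from female mice at 12 weeks of age on a C57BL/6 background. No source says that mice were pooled. By the parent crosses in the labels, Dmp1Cre.EfnB2f/f-labelled libraries 1 and 2 had the same parents, as had controls 1 and 2, while library 3 shared its cross with control 3, and control 4 came from a cross of its own. The Dmp1Cre.EfnB2f/f-labelled libraries (n = 3) carried Cre recombinase under the Dmp1 promoter, which is active in osteocytes and late osteoblasts, together with floxed alleles of Efnb2, the gene of the contact-dependent signaling molecule EphrinB2. The control libraries (n = 4) were labelled Dmp1Cre and carried the same Cre without the floxed alleles, in cousin-bred mice. The labels name no treatment, but the study's general description of its mice includes calcein injections and a fast before bones were collected. The bones also held cells in which Dmp1Cre is not active. The comparison asks which mRNAs differ in bone that lacks EphrinB2 in osteocytes.

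Proteins that are secreted or sit in membranes fold in the endoplasmic reticulum (ER), helped by chaperones. When unfolded protein builds up there, it is sensed at the ER membrane by IRE1 (encoded by Ern1), PERK (Eif2ak3) and ATF6 (Atf6). IRE1 splices Xbp1 mRNA so that it encodes an active transcription factor, PERK phosphorylates eIF2alpha, which slows translation but lets Atf4 mRNA be translated, and ATF6 is carried to the Golgi and cut to release a transcription factor. Together they raise ER chaperones such as Hspa5 (BiP), and, when stress persists, Ddit3 (CHOP) and Trib3. Osteoblasts make large amounts of collagen, and the pathway is known for its role in their secretory load. Counts per gene add the spliced and unspliced forms of Xbp1 and show neither phosphorylation nor cleavage, so that only mRNA levels are described.

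ATF6 and XBP1 are known to act through the ER stress response element (ERSE), spelled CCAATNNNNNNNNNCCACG, in which the N positions may hold any base. Promoter windows of 300 bases, reaching from 250 bases before the annotated start to 50 after it, were taken from RefSeq (GRCm38.p6) for 9 of the 10 genes. ERSE matches, on either strand, were found in the windows of Hspa5 and Hsp90b1. They are shown because they set these 2 chaperone genes apart by sequence from the other 7 members searched, 5′ to 3′ on the gene's own strand, with the fixed letters of the element in capitals.
Hspa5, chr2:34772020-34772048, + strand: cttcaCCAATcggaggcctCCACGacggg
Hsp90b1, first match, chr10:86705633-86705661, - strand: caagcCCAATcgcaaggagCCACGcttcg
Hsp90b1, second match, chr10:86705528-86705556, - strand: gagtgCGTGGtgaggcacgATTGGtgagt
The element of Hspa5 lies 65 to 47 bases before the RefSeq start, within the first exon of a transcript that starts earlier in GENCODE. The first match of Hsp90b1 lies 212 to 194 bases and the second 107 to 89 bases before the start, in no annotated exon, and the second reads as an ERSE on the opposite strand. Among all 32851 windows of the same length, 0.119% held the element. Of the 37 genes with such a window, 19 were tested, and 9 of these 19 are members or belong to the pathway lists described below (Calr, Canx, Creld2, Derl3, Dnajc3, Hsp90b1, Hspa5, Pdia6 and Syvn1). The 19 genes comprised 10 with a higher and 9 with a lower mean in the Dmp1Cre.EfnB2f/f-labelled libraries, with a median log2 fold change of 0.08 and 0 at an adjusted p under 0.05. Acacb (log2 fold change 0.90) and Zfp57 (1.13), neither of which is on a list used here, were the 2 at an unadjusted p under 0.05, and are named after their values were seen. The windows of the 9 members held 0 matches to TGACGTGG (UPR element, in 0.676% of all windows), TTGCATCA (the C/EBP-ATF response element, 0.895%) or TGACGTCA (cAMP response element, 1.79%), letters that are searched in these windows only.

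The library totals ranged from 18119947 to 19119250 counts in the Dmp1Cre.EfnB2f/f-labelled libraries and from 17245556 to 22075778 in the controls, so that even Trib3, the least abundant member, had 19 to 88 counts per library. Efnb2, counted over the whole gene and not only the floxed exon, went against the labels, with 322, 239 and 224 counts in the Dmp1Cre.EfnB2f/f-labelled libraries and 164, 139, 110 and 117 in controls 1 to 4 (log2 fold change 0.96, SE 0.21, edgeR adjusted p = 0.511). For this reason libraries are named here by their labels. The first principal component took up 53.9% of the variance and separated controls 1 and 4 from the other 5 libraries. Summed markers of several cell types differed between libraries as well. Summed osteoblast markers (7 of 7 genes found) reached 13865 to 23180 CPM (counts scaled to library size by TMM) in the Dmp1Cre.EfnB2f/f-labelled libraries and 13480 to 67637 CPM in the controls, highest in control 1 and nearly all Col1a1 and Col1a2, and without these 2 genes 950 to 1036 and 551 to 1905 CPM. Erythroid markers (5 of 6) summed to 4043 to 9435 against 10681 to 30225 CPM, and neutrophil markers (8 of 8) to 11506 to 14373 against 16429 to 19524 CPM, without overlap. Endothelial markers (6 of 6) did not overlap either, with 406 to 493 against 312 to 391.97 CPM. Skeletal muscle markers (7 of 7) summed to 20081 to 34121 against 9515 to 21889 CPM, plasma cell markers (7 of 7) to 351 to 458 against 204 to 323 CPM, and, without Jchain, which made up most of that sum, to 90.6 to 113 against 61.4 to 137 CPM. As a list, the plasma cell markers had a median log2 fold change of 0.04. Osteocyte markers (6 of 6) summed to 245 to 476 against 149 to 591 CPM. No marker found was at 0 in all libraries. Plasma cells are rich in ER, and the part of these cell types in the values of the UPR genes was not tested. In bulk bone, fewer cells of a type and less RNA per cell cannot be told apart.

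All 10 UPR genes were expressed in every library, and none passed the test for a difference between the genotypes. With edgeR's quasi-likelihood test, 0 of the 10 had an adjusted p under 0.05, where 0.0% of all genes tested did. At an unadjusted p under 0.05 there were also 0 of 10, against 9.66% of all genes, and the 2 groups overlapped in all 10, whereas they did not overlap in 11.3% of all genes. DESeq2 called 0 members and 0.477% of all genes. The mean was higher in the Dmp1Cre.EfnB2f/f-labelled libraries in 5 members and lower in 5, with a median log2 fold change of -0.03 beside 0.01 over all genes tested. The lowest unadjusted p was that of Dnajb9, 0.0990. The 95% confidence intervals of the edgeR fit take the 7 libraries as independent samples, although some share a parent cross. That of Eif2ak3 ran from a 0.824- to a 1.26-fold level and that of Hspa5 from 0.725- to 1.28-fold. The interval of Trib3 ran from 0.402- to 1.62-fold, so that for this member, with the fewest counts, a fall of 2-fold lay inside it. A fit blocked on parent cross rests on 1 mouse of each genotype. It put the log2 fold changes of Trib3 (0.95), Xbp1 (0.38) and Dnajb9 (-0.24) outside their intervals, and those of the other members inside.

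**Figure D1:**
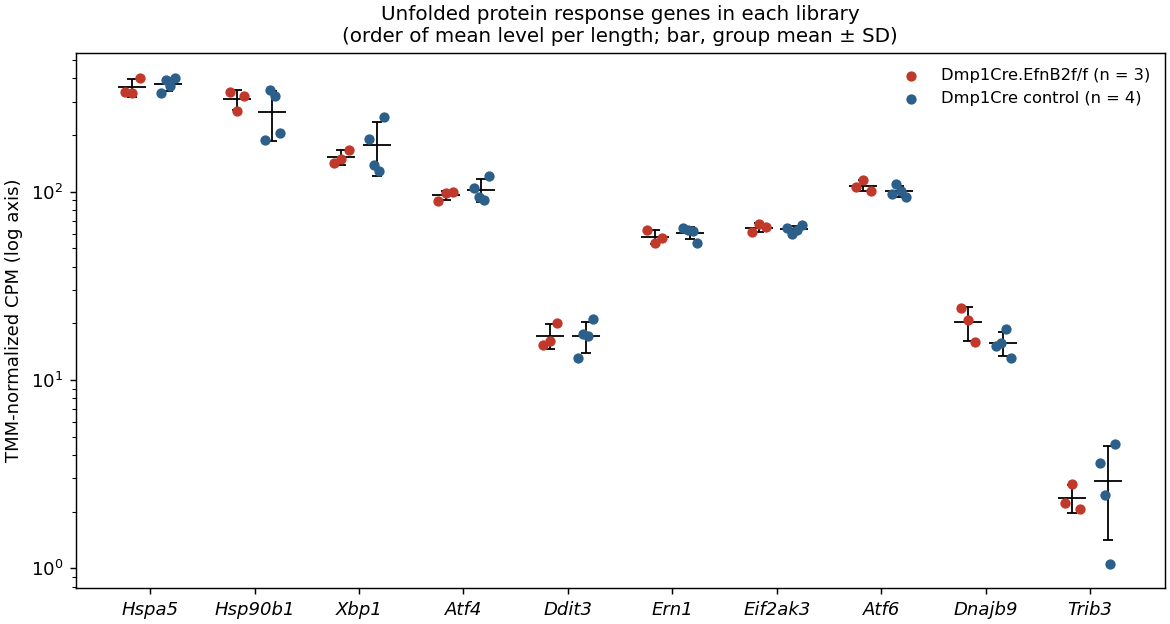
TMM-normalized counts scaled to library size (CPM, log axis) of the 10 genes in each library, with the group mean ± SD as black bars and genes in order of mean level per length. The 3 Dmp1Cre.EfnB2f/f-labelled libraries (red) and the 4 controls (blue) overlap for every gene, with the widest spread in Trib3 (1.06 to 4.55 CPM in the controls).

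Compared per length, as reads scaled to gene length and library total (RPKM, mean over the 7 libraries), the members spanned a wide range of levels. The chaperone Hspa5 was highest with 140.3 RPKM and a level above 97.9% of all genes tested, followed by Hsp90b1 (102.9 RPKM), Xbp1 (92.6 RPKM) and Atf4 (57.7 RPKM). Ddit3 (19.8 RPKM), Ern1 (14.9 RPKM), Eif2ak3 (14.2 RPKM) and Atf6 (13.9 RPKM) lay above 74.9%, 66.6%, 65.2% and 64.6% of all genes tested. Dnajb9 (9.46 RPKM) lay near the middle of the distribution, above 53.0%, and Trib3 was lowest with 1.31 RPKM. Of the neighbours in this order, Hsp90b1 was above Xbp1 in 5 of 7 libraries, Ddit3 above Ern1 in 6, Ern1 above Eif2ak3 in 4 and Eif2ak3 above Atf6 in 4, with ranges that overlapped. Atf6 and Dnajb9 also had overlapping ranges, although Atf6 was above Dnajb9 within each of the 7 libraries. The 3 membrane sensors were thus not separated from one another in level.

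Of the chaperones, Hspa5 (Entrez gene 14828, chromosome 2 of GRCm38, 34772090 to 34776529), which encodes BiP, the major ER chaperone that also binds the sensors, had a normalized level of 338, 335 and 404 CPM in the Dmp1Cre.EfnB2f/f-labelled libraries and 334, 391, 363 and 404 CPM in controls 1 to 4. Both groups filled the same range, and the highest library was only 1.21-fold above the lowest. The means were 359 ± 39.2 CPM (SD, n = 3) and 373 ± 31.1 CPM (SD, n = 4), with a log2 fold change of -0.06 (SE 0.18, edgeR adjusted p = 0.895). The span of Hspa5 overlaps Rabepk, and a strand setting for the counting is not given in the sources used here.

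Hsp90b1 (chromosome 10, 86690841 to 86705444) encodes GRP94, an ER chaperone of the HSP90 family. It had 337, 268 and 323 CPM in the Dmp1Cre.EfnB2f/f-labelled libraries, and 189, 345, 321 and 205 CPM in controls 1 to 4. Controls 1 and 4 were the lowest of the 7 libraries, and the other 2 controls lay within or above the range of the former. The log2 fold change was 0.22 (SE 0.26, edgeR adjusted p = 0.701), and -0.10 when controls 1 and 4 were left out together.

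Dnajb9 (chromosome 12, 44205897 to 44210068), the co-chaperone ERdj4 and a known target of spliced XBP1, had 24.1, 20.9 and 15.9 CPM in the Dmp1Cre.EfnB2f/f-labelled libraries and 15.1, 15.7, 18.7 and 13.1 CPM in controls 1 to 4. Dmp1Cre.EfnB2f/f-labelled libraries 1 and 2, which share a parent cross, were above every control, and library 3 lay within their range and below control 3, the control of its own cross. It was the largest difference among the members in the edgeR fit, with a log2 fold change of 0.37 (SE 0.20, 95% confidence interval -0.09 to 0.83, edgeR adjusted p = 0.518). A fit blocked on parent cross, which rests on Dmp1Cre.EfnB2f/f-labelled library 3 and control 3 alone, gave -0.24. Unblocked, the value moved with single libraries, from 0.23 without Dmp1Cre.EfnB2f/f-labelled library 1 and 0.29 without control 4 to 0.52 without Dmp1Cre.EfnB2f/f-labelled library 3. Without Dmp1Cre.EfnB2f/f-labelled library 3 the groups no longer overlapped (edgeR unadjusted p = 0.0418), nor did they without control 3. The share of all genes without overlap in these settings is not given here. With the trend of each library against GC content and transcript length removed, the log2 fold change of Dnajb9 was 0.08.

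Among the sensors, Ern1 (chromosome 11, 106397620 to 106487796), the kinase and RNase IRE1, had 62.9, 53.6 and 56.9 CPM in the Dmp1Cre.EfnB2f/f-labelled libraries and 64.2, 62.7, 61.8 and 53.7 CPM in controls 1 to 4. The lowest library of each group was at the same level, and the log2 fold change was -0.07 (SE 0.15, edgeR adjusted p = 0.835).

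Eif2ak3 (chromosome 6, 70844484 to 70905241), which encodes the kinase PERK, was the steadiest member, with 61.1, 67.8 and 64.8 CPM in the Dmp1Cre.EfnB2f/f-labelled libraries and 64.4, 59.7, 62.9 and 66.3 CPM in controls 1 to 4. Its highest library was 1.136-fold above its lowest, and its SD over the 7 libraries, 0.06 on the log2 scale, was smaller than that of all but 0.338% of the genes tested. The log2 fold change was 0.03 (SE 0.14, edgeR adjusted p = 0.932). When scaled by library size alone, without TMM, its groups did not overlap, and the share of all genes in that setting is not given here.

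Atf6 (chromosome 1, 170704457 to 170868585), the sensor that is itself cut into a transcription factor, had 107, 115 and 101 CPM in the Dmp1Cre.EfnB2f/f-labelled libraries and 97.1, 110.2, 101 and 94.2 CPM in controls 1 to 4. The groups overlapped, with the highest value in library 2 of the former and the lowest in control 4, and the log2 fold change was 0.10 (SE 0.14, edgeR adjusted p = 0.765).

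Of the transcription factors, Xbp1 (chromosome 11, 5520641 to 5525993) had 141, 149 and 167 CPM in the Dmp1Cre.EfnB2f/f-labelled libraries, and 191, 139, 128 and 251 CPM in controls 1 to 4. Controls 1 and 4 were the highest of the 7 libraries and controls 2 and 3 the lowest, with all 3 Dmp1Cre.EfnB2f/f-labelled libraries in between. The log2 fold change was -0.21 (SE 0.25, edgeR adjusted p = 0.706), and 0.20 when controls 1 and 4 were left out together.

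Atf4 (chromosome 15, 80255184 to 80257545), the factor whose translation follows PERK, had 89.2, 98.3 and 99.8 CPM in the Dmp1Cre.EfnB2f/f-labelled libraries and 104, 93.8, 90.5 and 121 CPM in controls 1 to 4. Again controls 1 and 4 were highest, and the log2 fold change was -0.10 (SE 0.16, edgeR adjusted p = 0.786).

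Ddit3 (chromosome 10, 127290793 to 127296291), which encodes CHOP, a factor linked to death under lasting ER stress, had 15.3, 16.2 and 20.2 CPM in the Dmp1Cre.EfnB2f/f-labelled libraries and 13.1, 17.6, 17.1 and 20.99 CPM in controls 1 to 4. The lowest and the highest library were both controls. The means were 17.2 ± 2.58 CPM (SD, n = 3) and 17.2 ± 3.23 CPM (SD, n = 4), with a log2 fold change of 0.00 (SE 0.20, 95% confidence interval -0.46 to 0.47, edgeR adjusted p = 0.997). Its span overlaps Mars1 and Mbd6, with which reads could be shared.

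Trib3 (chromosome 2, 152337425 to 152344060), a pseudokinase induced by ATF4 and CHOP, had 2.22, 2.82 and 2.06 CPM in the Dmp1Cre.EfnB2f/f-labelled libraries and 3.65, 2.44, 1.06 and 4.55 CPM in controls 1 to 4. The controls spread 4.30-fold, from control 3 to control 4, and enclosed the other group. The log2 fold change was -0.31 (SE 0.44, edgeR adjusted p = 0.757), and 0.43 when controls 1 and 4 were left out together.

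**Figure D2:**
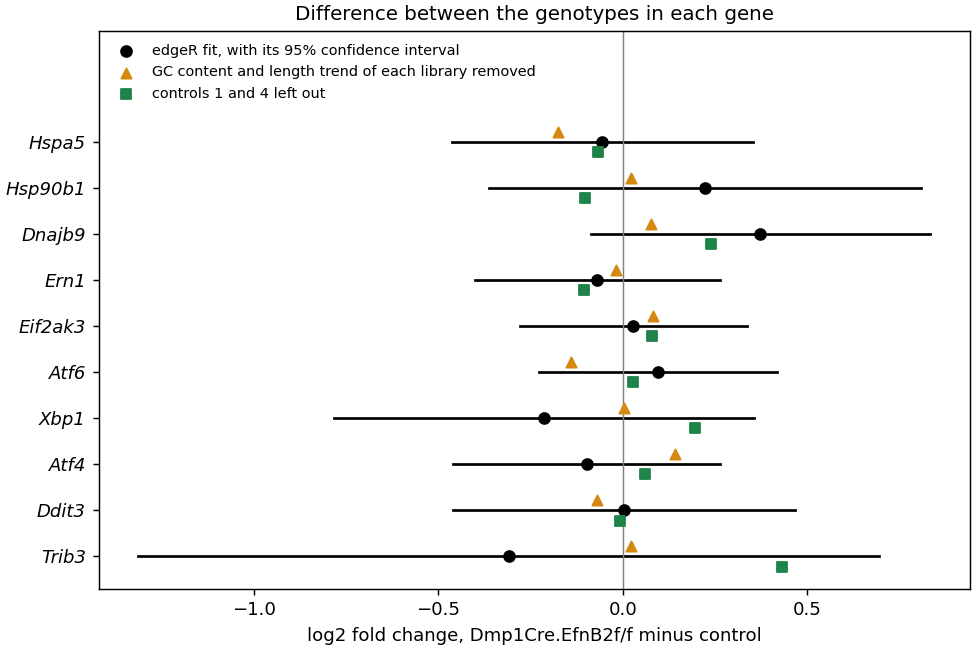
Log2 fold change (Dmp1Cre.EfnB2f/f-labelled minus control libraries) of each gene from the edgeR fit (black, with its 95% confidence interval), with the GC and length trend of each library removed (orange triangles) and with controls 1 and 4 left out (green squares). Every interval includes 0. The triangles of Hsp90b1 (0.02), Xbp1 (0.00), Trib3 (0.02), Dnajb9 (0.08) and Ern1 (-0.02) lie closer to 0 than the black points. Those of Hspa5 (-0.18), Atf4 (0.14), Atf6 (-0.14), Ddit3 (-0.07) and Eif2ak3 (0.08) lie farther from it.

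The study's own limma pipeline used sample quality weights and a block for the day of collection, with one mouse of each genotype on the second day. The labels do not say which, and so the pipeline was run without the block and with each of the 12 possible pairs. The pairs need not be equally likely. In the numbered library names, Dmp1Cre.EfnB2f/f-labelled library 3 and control 4 come last, after a gap, which matches the study's split into days. No source ties these numbers to the day. Without the block it called 14.9% of all genes and 0 of the 10 members. With the block, 0 members were called for 9 of the 12 pairs. Dnajb9 was called higher for the other 3, with a log2 fold change of 0.45 for Dmp1Cre.EfnB2f/f-labelled library 1 with control 2 (limma adjusted p = 0.0460), 0.49 for library 2 with control 4 (limma adjusted p = 0.0238) and 0.46 for library 3 with control 4 (limma adjusted p = 0.00929). In these 3 runs 9.27%, 10.7% and 14.7% of all genes were called higher, so that 1 of 10 members was close to the share of all genes. The other 9 members were called in 0 of the 12 runs.

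Control 1 or control 4 was the highest or the lowest of the 7 libraries in 9 of the 10 members, as in 85.9% of all genes tested, and the 2 controls lay to opposite sides in different members. In the mean of controls 1 and 4, relative to the mean of the other 5 libraries, Hsp90b1 was lower by a log2 difference of -0.69 and Dnajb9 by -0.42, while Trib3 was higher by 1.01, Xbp1 by 0.60 and Atf4 by 0.26. The remaining 5 members lay between -0.16 and 0.05. The order followed the GC content of the transcript. Dnajb9 (40.6% GC) and Hsp90b1 (42.1%) are the members poorest in GC, Xbp1 (53.0%), Atf4 (55.5%) and Trib3 (58.2%) the richest, and the median over all genes with a value was 49.9%. Across the 10 members the difference and the GC content had a Pearson's r of 0.89 and a Spearman's rho of 0.89. The same held across genes in general, with an r of 0.73 over the 88 genes of the 6 pathway lists and 0.66 over 14434 genes tested. These are descriptions across genes that share the same 7 libraries, and genes are not independent replicates.

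**Figure D3:**
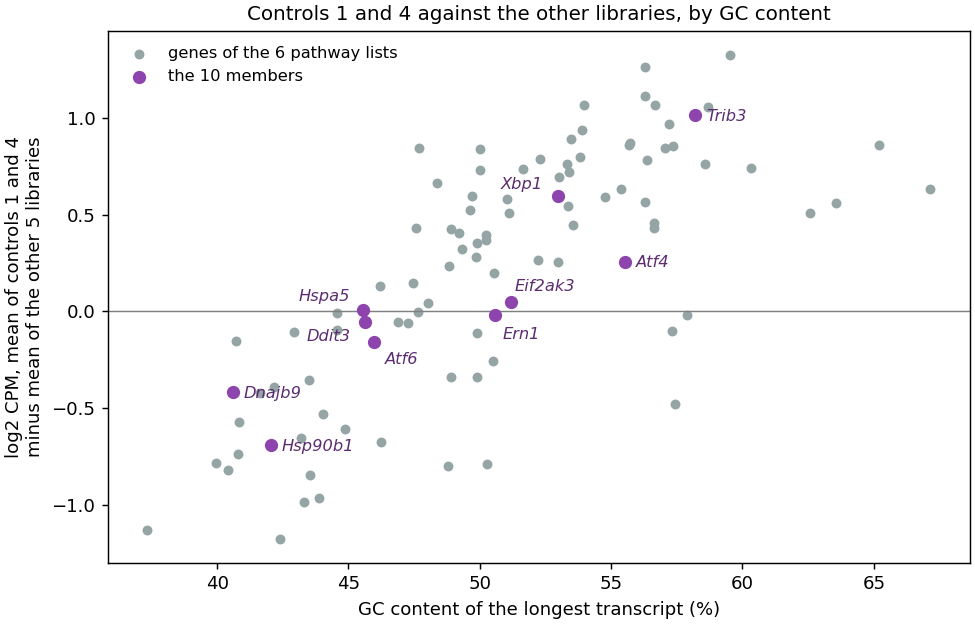
Mean log2 CPM of controls 1 and 4 minus the mean of the other 5 libraries, against the GC content of each gene's longest transcript, for the 10 members (purple) and the genes of the 6 pathway lists (grey). The members run from -0.69 in Hsp90b1 and -0.42 in Dnajb9 to 1.01 in Trib3, and the pathway genes also rise with GC content (Pearson's r of 0.73).

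By library, the correlation across genes between GC content and the deviation from the gene mean was 0.57 in control 1 and 0.55 in control 4, and -0.44 in control 2 and -0.46 in control 3. It was -0.42, -0.35 and -0.05 in Dmp1Cre.EfnB2f/f-labelled libraries 1, 2 and 3. The controls therefore fell into 2 of each sign, and the Dmp1Cre.EfnB2f/f-labelled libraries lay between their extremes. What gave rise to this difference in GC content among the libraries was not tested.

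**Figure D4:**
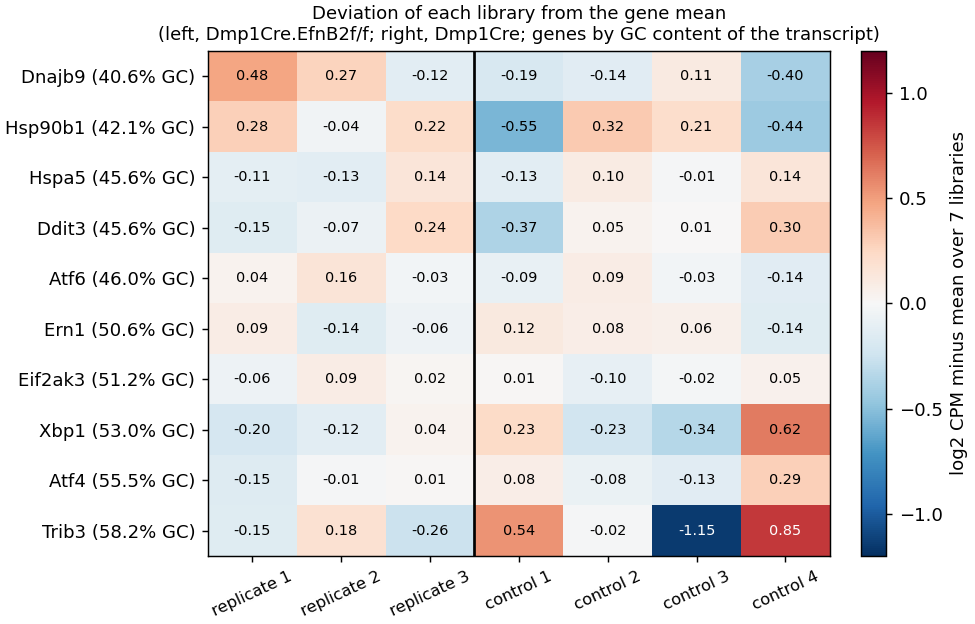
Deviation of each library's log2 CPM from the gene's mean over the 7 libraries, with the members in order of GC content (40.6% at the top to 58.2% at the bottom). Controls 1 and 4 are below the mean for Dnajb9 and Hsp90b1 and above it for Xbp1, Atf4 and Trib3, and Eif2ak3 stays within 0.10 of its mean in every library.

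The balance between members within a library moved with the same libraries. The ratio of Xbp1 to Hsp90b1 was 0.420, 0.557 and 0.519 in the Dmp1Cre.EfnB2f/f-labelled libraries and 1.01, 0.402, 0.399 and 1.23 in controls 1 to 4, a 3.07-fold range set by controls 3 and 4. After the GC and length trend of each library was removed, the range was 1.35-fold. The ratio of Hspa5 to Hsp90b1, the genes with an ERSE in their promoter windows, was highest in control 4 (1.98) and control 1 (1.77) and lay between 1.00 and 1.25 in the other 5 libraries, and its range of 1.97-fold became 1.47-fold. Removal of the trend did not narrow every ratio. That of Ddit3 to Atf4 had a 1.61-fold range before and a 1.77-fold range after.

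With the trend removed, the SD over the 7 libraries became smaller in 6 of the 10 members, and its median over the members went from 0.19 to 0.15 on the log2 scale, beside 0.35 and 0.26 over all genes. For Hsp90b1 it went from 0.36 to 0.14 and for Xbp1 from 0.33 to 0.15. For Hspa5 it went from 0.13 to 0.20, and for Atf6, from 0.10 to 0.15. The genotype comparison then gave 0 members at an adjusted p under 0.05 and 0 at an unadjusted p under 0.05. Of all 15098 genes, 1986 were at that unadjusted p (edgeR). The log2 fold changes of the members ran from -0.18 in Hspa5 to 0.14 in Atf4, with a median of 0.01.

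The wider pathway was described with 6 lists of UPR genes and of genes tied to it, such as other eIF2alpha kinases and general cell death genes. Of these genes 88 were tested (edgeR), and the lists gave 0 at an adjusted p under 0.05 in either direction. The lowest adjusted p was 0.511. At an unadjusted p under 0.05 there were 2 higher and 6 lower genes, together 9.09% of the 88, near the 9.66% of all genes. The groups did not overlap in 4 genes (4.55%, against 11.3% of all genes). Nevertheless the signs were uneven, as 63 of the 88 genes had a lower mean in the Dmp1Cre.EfnB2f/f-labelled libraries, where 48.7% of all genes did. Their median log2 fold change was -0.22, which went to -0.15 with the GC and length trend removed and to -0.02 with controls 1 and 4 left out. Control 4 had the highest level of the 7 libraries in 45 of the 88 genes and control 1 in 10.

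**Figure D5:**
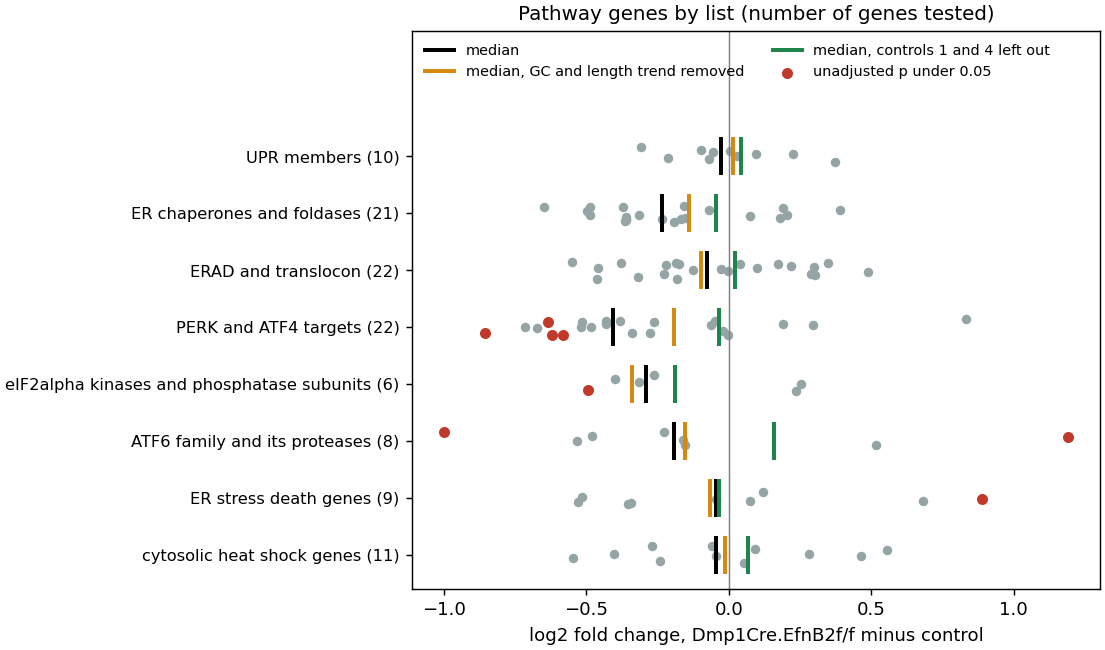
Log2 fold change of the genes of each list (points, red where the unadjusted p was under 0.05), with the list's median in the edgeR fit (black), with the GC and length trend removed (orange) and with controls 1 and 4 left out (green). The median of the PERK and ATF4 targets is -0.41, -0.19 and -0.04 in these 3 fits, while that of the 10 members stays between -0.03 and 0.04.

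Among 22 targets of PERK and ATF4, which encode amino acid transporters, tRNA synthetases and feedback factors, 19 had a lower and 3 a higher mean, with 4 at an unadjusted p under 0.05, all of them lower, where 5.03% of all genes were lower at that level. The median log2 fold change of this list was -0.41, the lowest of the 6 in the edgeR fit with all libraries, but not with the GC and length trend removed (-0.19) nor without controls 1 and 4 (-0.04), where the eIF2alpha list was lower (-0.34 and -0.19). Slc7a5, a transporter of large neutral amino acids, had 66.6, 97.0 and 99.3 CPM in the Dmp1Cre.EfnB2f/f-labelled libraries and 165, 121, 95.3 and 253 CPM in controls 1 to 4 (log2 fold change -0.86, SE 0.34, unadjusted p = 0.0320 and adjusted p = 0.511 from edgeR). Control 3 lay within the range of the other group, and controls 1 and 4 were the highest. Mthfd2, an enzyme of mitochondrial folate metabolism, had a log2 fold change of -0.64 (SE 0.26). Cebpb, a transcription factor, was at -0.58 (SE 0.25), and Asns, the asparagine synthetase that was the fourth gene at this level and lies outside the naming rule, at -0.62 (SE 0.27). The most abundant gene of the list, Ppp1r15a, encodes GADD34, which brings a phosphatase to eIF2alpha. It had 137, 181 and 153 CPM in the Dmp1Cre.EfnB2f/f-labelled libraries and 233, 175, 193 and 401 CPM in controls 1 to 4 (log2 fold change -0.67, SE 0.30, edgeR adjusted p = 0.511). With controls 1 and 4 left out these values were -0.30 for Slc7a5, -0.52 for Mthfd2, -0.32 for Cebpb, -0.20 for Asns and -0.23 for Ppp1r15a. With the GC and length trend removed and all libraries kept they were -0.60, -0.57, -0.20, -0.63 and -0.40 in the same order. In that fit 5 of the 22 genes were at an unadjusted p under 0.05 (edgeR), as were 1986 of all 15098 genes. Gars, a tRNA synthetase outside the naming rule, was the one gene of the list whose groups did not overlap, with a log2 fold change of -0.28 (SE 0.17). Under the limma pipeline without a day block 3 of the 22 genes (13.6%) were called, near the 14.9% of all genes.

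Of 6 genes of eIF2alpha, its kinases (Eif2ak3 apart) and its phosphatase, 4 had a lower and 2 a higher mean (median log2 fold change -0.29). Eif2ak1, the heme-regulated kinase HRI, which is abundant in erythroid cells, was the most abundant of the list and had 117, 143 and 153 CPM in the Dmp1Cre.EfnB2f/f-labelled libraries and 164, 172, 189 and 249.6 CPM in controls 1 to 4, without overlap (log2 fold change -0.49, SE 0.20, unadjusted p = 0.0379 and adjusted p = 0.511 from edgeR). The summed erythroid markers had the same split, with 4043 to 9435 against 10681 to 30225 CPM, and the part they take in this difference was not tested. Ppp1r15b, the constitutive partner of the eIF2alpha phosphatase, also did not overlap between groups, with 247, 270.2 and 292 CPM in the Dmp1Cre.EfnB2f/f-labelled libraries and 309, 343, 312 and 380.2 CPM in controls 1 to 4 (log2 fold change -0.32, SE 0.18, edgeR adjusted p = 0.520). Both kept values of -0.39 and -0.28 with controls 1 and 4 left out. Gcn1l1, a partner of the kinase GCN2, was at -0.40 and went to 0.07 in that setting. With the GC and length trend removed, Eif2ak1 was at -0.45, Ppp1r15b at -0.39 and Gcn1l1 at -0.29.

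The 21 ER chaperones and foldases beside the members had a lower mean in 16 and a higher mean in 5, with 0 at an unadjusted p under 0.05 and a median log2 fold change of -0.23. Sdf2l1, which keeps ER proteins soluble together with BiP, had 14.9, 16.7 and 25.2 CPM in the Dmp1Cre.EfnB2f/f-labelled libraries and 31.2, 20.6, 17.6 and 49.3 CPM in controls 1 to 4 (log2 fold change -0.65, SE 0.37, edgeR adjusted p = 0.525). Hyou1, a large chaperone that exchanges the nucleotide of BiP, was at -0.49 (SE 0.28) and Ppib, a prolyl isomerase needed for collagen, at -0.49 (SE 0.27). Calr, calreticulin, the most abundant of the list, was at -0.36 (SE 0.29). With controls 1 and 4 left out these 4 genes had values of -0.01 (Sdf2l1), -0.05 (Hyou1), -0.00 (Ppib) and 0.09 (Calr), and the median of the list was -0.05. With the GC and length trend removed and all libraries kept they were at -0.32, -0.38, -0.35 and -0.26 in the same order, and the median was -0.14. Control 4 was the highest library in 13 of the 21 genes. The summed osteoblast markers, genes of a cell that secretes collagen, were also highest in controls 1 (67637 CPM) and 4 (33475 CPM), through Col1a1 and Col1a2. Without these 2 genes the sum was 1905 CPM in control 1 and 1058 CPM in control 4, beside 1036 CPM in Dmp1Cre.EfnB2f/f-labelled library 3, and Ibsp was lowest in control 4 (160.2 CPM). Their part in the chaperone values was not tested.

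Of the 22 genes of ER-associated degradation and the translocon, 13 had a lower and 9 a higher mean, with 0 at an unadjusted p under 0.05 (median log2 fold change -0.08). Sec63, a translocon subunit with a GC content of 43.5%, was at 0.49 (SE 0.25), while Sec61a1, the channel subunit, with 53.9% GC, was at -0.55 (SE 0.30). Edem2, which trims mannose from misfolded glycoproteins, was at -0.46 (SE 0.26) and Ssr4, a translocon-associated protein and the most abundant of the list, at -0.38 (SE 0.25). Sec63 and Sec61a1, both of the translocon, thus had opposite signs. Controls 1 and 4 were the lowest 2 libraries for Sec63 and the highest 2 for Sec61a1, Edem2 and Ssr4. With the GC and length trend removed the signs stayed opposite, at 0.23 for Sec63 and -0.33 for Sec61a1, with Edem2 at -0.25 and Ssr4 at -0.17. The part of GC content in these signs was not tested.

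Among 8 ATF6 family genes and their proteases, 6 had a lower and 2 a higher mean (median -0.19). Creb3l4, an ATF6-like factor bound to the ER membrane, was higher in each Dmp1Cre.EfnB2f/f-labelled library than in every control, with 1.43, 1.36 and 0.953 CPM against 0.493, 0.326, 0.835 and 0.517 CPM (log2 fold change 1.19, SE 0.36, unadjusted p = 0.0100 and adjusted p = 0.511 from edgeR). It had the lowest p of the 88 genes at a level near 1 CPM. Creb3l3, with 0.793 to 1.65 CPM against 1.56 to 3.94 CPM, was at -1.002 (SE 0.41, unadjusted p = 0.0386 and adjusted p = 0.511 from edgeR). Of the proteases that cut ATF6, neither passed the test, with Mbtps1 (site-1 protease) at -0.16 (SE 0.18) and Mbtps2 (site-2 protease) at 0.52 (SE 0.27).

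Of 9 tested genes tied to cell death under ER stress (Ern2, the tenth, was below the filter on low counts), 4 had a higher and 5 a lower mean (median -0.05). Tnfrsf10b, the death receptor DR5 and a known CHOP target, had 6.35, 3.44 and 2.01 CPM in the Dmp1Cre.EfnB2f/f-labelled libraries and 2.12, 1.74, 2.28 and 2.33 CPM in controls 1 to 4 (log2 fold change 0.89, SE 0.37, unadjusted p = 0.0420 and adjusted p = 0.511 from edgeR). Dmp1Cre.EfnB2f/f-labelled libraries 1 and 2 were above the controls, and library 3 was within their range. Casp12, an ER-bound caspase, was at 0.68 (SE 0.32, edgeR unadjusted p = 0.0647). With the GC and length trend removed it was at 0.37 (SE 0.16, unadjusted p = 0.0491 and adjusted p = 0.379 from edgeR). Bak1 was at -0.53 (SE 0.29) and Bax, the most abundant of the list, at -0.34 (SE 0.22), both of them pore-forming proteins of mitochondrial cell death. The cytosolic heat shock genes, a folding response outside the ER, gave 5 higher and 6 lower means of 11 (median -0.05), with 0 at an unadjusted p under 0.05. Bag3 was at 0.55 (SE 0.27), Dnajb1 at -0.55 (SE 0.29), Hspa8 at -0.24 (SE 0.25) and Hsp90ab1, the most abundant, at -0.05 (SE 0.20).

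The genes whose log2 levels were most like those of a member over the 7 libraries were looked up for Hspa5, Ddit3 and Ern1. For Hspa5 these were Prkra (Pearson's r of 0.98), Kcnj9, Crkl, Katnal1 and Trmt1l (0.95). For Ddit3 they were Sf3a3 (0.98), Mrps25, Xpot, Ube2r2 and Hspe1 (0.95), and for Ern1 Bicdl2 (0.96), Prss16, Plekhh1, Slc12a5 and Fndc7 (0.92). Of these 15 genes, Hspe1 is on the list of cytosolic heat shock genes and 0 are on the UPR lists. With only 7 libraries, out of 15098 genes, values this high describe likeness in these libraries alone.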

How the data were processed

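The authors mapped 100-base paired-end reads to mm10 with Rsubread, counted them per Entrez gene with featureCounts and deposited raw counts for each library, without normalization or pooling. The submitters' processing notes also name bcl2fastq 2.17.1.14. Versions of the other tools and the strand setting are not given in the sources used here. From these deposited counts, genes at 0.65 CPM or more in 3 libraries were kept (16302), and pseudogenes, predicted genes, ribosomal RNA, immunoglobulin segments, Y-linked genes, Xist and genes that lack a symbol were left out, as in the study, leaving 15098. Libraries were grouped by the genotype in the labels and tested with edgeR 4.0.16 in R 4.3.3 (TMM, robust quasi-likelihood, no covariates, Benjamini-Hochberg adjustment over all 15098 genes, threshold 0.05). The SE is the log2 fold change over the square root of F. DESeq2 1.42.0 and the study's limma pipeline (limma 3.58.1, prior count 2, quantile normalization, weights) were run beside it, the latter with each of 12 possible day blocks. GC content came from the longest GENCODE M21 transcript, for 95.6% of the genes tested. The GC and length trend of each library was removed through offsets in an alternative chosen after seeing the data, as was leaving out controls 1 and 4 together. The scripts were tested on simulated data.

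The members and the gene lists were chosen with earlier results of these data known. Named beside the members are Efnb2, the 3 genes of each list with the lowest unadjusted p and its most abundant gene per length, and the 5 genes most like Hspa5, Ddit3 and Ern1. Positions are those of RefSeq on GRCm38.p6, the build of mm10. Library totals were 17245556 to 22075778 counts, and libraries of one genotype differed by more than counting error (chi-square over degrees of freedom, 31.2 to 204). Libraries that share a parent cross were tested as separate samples, so p-values measure the spread between these samples.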

Additional observations from a re-analysis of the deposited data

Results flagged for a closer look

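One result stood out among the 38 examined. Dnajb1, a cytosolic co-chaperone of the heat shock list, was at 142.6 CPM in control 4, and the gap to the next control was 0.851 of the range of the 4 controls, above the critical value of Dixon's test for 4 samples. Chance alone would give about 1.9 such results among 38.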

How the results depend on the processing

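Recomputed under the alternatives, 192 counts and medians stayed within their margin (counts within 1.5 times, medians within 1 SD over the controls) and 26 did not, and 170 fold changes of members kept their sign and side of the threshold. Members called at an adjusted p stayed 0 except for 1 (Dnajb9) at the highest with a day block. At an unadjusted p there was 1 under limma without a day block, at most 2 with one, and 0 to 1 leaving out each library. Groups without overlap numbered 1 with library size only and 0 to 1 leaving out each library. The share of all genes in the same settings is not given here for these counts, so they are not read as results about the members. The members' median log2 fold change was 0.0599 with library size only, 0.106 under limma without a day block and at its highest with one, 0.0921 with the parent cross as a block, 0.0439 without controls 1 and 4, and -0.0911 to 0.0283 leaving out each library. Without a day block, limma called 14.9% of all genes and 1 of 21 ER chaperones, 1 of 22 ERAD, 3 of 22 PERK, 1 of 8 ATF6 family and 2 of 11 heat shock genes. The highest with one was 6, 4, 6, 4 and 3 in the same order, 3 of 6 eIF2alpha and 4 of 9 death genes. A run that called 32.6% of all genes reached each of these. The heat shock maximum of 3 of 11 (27.3%) occurred in 4 runs, which called from 13.2% to 32.6% of all genes.

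Signs turned in 39 cases, none past the threshold on either side. With library size only, Hspa5 was 0.0287 and Ern1 0.00886. Ddit3 was -0.0213 with DESeq2, -0.00529 with all gene classes kept and -0.13 to 0.11 leaving out each library, in which Hspa5 reached 0.00325. Under limma without a day block, Hsp90b1 was -0.16, Xbp1 0.14, Atf4 0.0904, Ddit3 -0.15 and Trib3 0.24. Without quality weights, Hspa5 was 0.11 and Ddit3 -0.0460. With a day block the extremes were Hspa5 0.16, Xbp1 0.20, Atf4 0.11, Ern1 0.0205, Trib3 0.56, Hsp90b1 -0.13 and Ddit3 -0.23. With the parent cross as a block, which rests on 1 mouse of each genotype, Hspa5 was 0.16, Xbp1 0.38, Atf4 0.14, Atf6 -0.00341, Dnajb9 -0.24 and Trib3 0.95. With the GC and length trend removed, Xbp1 was 0.00421, Atf4 0.14, Atf6 -0.14, Ddit3 -0.0695 and Trib3 0.0222. Without controls 1 and 4, Hsp90b1 was -0.10, Xbp1 0.20, Atf4 0.0594, Ddit3 -0.00619 and Trib3 0.43. The cause of these turns was not tested.

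Same-numbered libraries did not deviate together (r of -0.14, 0.06 and -0.42). The pair at -0.42, replicate 3 of each group, nevertheless shares a parent cross. These r values therefore cannot tell whether the replicate numbers pair the mice. With the replicate number as a block, in which control 4 has no partner, the members' median was 0.0578, Xbp1 was 0.0190 and Trib3 0.11, and 0 members were called. The members had 19 (Trib3 in control 3) to 8063 counts per library, and what limits detection was not tested.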
